A study of Mus musculus with 6 samples.

Results

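The histone genes described here encode the core histones H2A, H2B, H3 and H4 and the linker histones H1, in their replication-dependent and variant forms. They were taken from the array's platform annotation as genes whose symbol begins with Hist1h to Hist4h or with H1f, H2f or H3f. The annotation already uses the current nomenclature, so only 9 genes met that rule by their listed symbol. Another 26 met it by the older symbol that shares their Entrez identifier (Hist2h3c2 for H3c15, for example). The resulting 35 genes, of 19938 measured, comprised 8 H1, 5 H2A, 11 H2B, 4 H3 and 7 H4 genes, and each had exactly 1 probe that named it alone. A further 33 histone probes named several genes and are given apart. Of the 81 genes in the mouse RefSeq table (GRCm38.p6) that met the rule, 39 were named only by such shared probes and 7 had no named probe among those analysed here.

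Core histones form the octamer around which DNA is wrapped, and H1 binds the DNA between nucleosomes. Replication-dependent histone genes lie mostly in clusters, are transcribed when DNA is copied, and give messenger RNAs that end in a stem-loop instead of a poly(A) tail. Replacement variants such as H3.3 are made throughout the cell cycle from polyadenylated messages. In proliferating cells, among them leukaemia cells, the replication-dependent transcripts are therefore abundant, and their total follows the share of cells in S phase.

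Total RNA was hybridised from pre-B cells of FvB/N mice transformed by BCR-ABL1, the fusion kinase of Philadelphia chromosome-positive (Ph+) acute lymphoblastic leukaemia (ALL). All cells were SPRY1/2 fl/fl, so that both Sprouty genes, which encode inhibitors of receptor tyrosine kinase signalling, could be deleted by Cre. Control cells (3 arrays) carried PMIP-ERT2, and the cells in which deletion was induced (3 arrays) carried PMIP-CRE-ERT2, a Cre recombinase activated by tamoxifen. Both groups received 0.5 micromolar 4OH-Tamoxifen for 2 days. Controls thus carried the floxed alleles and received the drug too, and arrays of Cre-ERT2 cells lacking the floxed alleles were not analysed here; loss of the Sprouty genes and activity of the recombinase cannot be told apart. Whether the 3 arrays of each group stem from independent cultures is not given in the labels, and the p-values therefore reflect array-to-array spread that may be technical.

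Values are log2 signals, and differences are Cre-ERT2 minus control. A linear model was fitted to each of 19938 genes in limma, which shares information on the variance across genes. A gene was called when its limma p-value was under 0.05 after Benjamini-Hochberg adjustment over those genes. By this rule 159 genes were higher and 223 lower. The split became 314 and 692 with the arrays centred on their medians and 369 and 334 after repeated quantile normalization. It was 188 and 63 without control 1, and 31 to 96 higher and 18 to 111 lower without another single array. Spry1 and Spry2 fell to 55.7% and 47.8% of the control signal (limma adjusted p 0.00462 and 0.00162). B lineage identity was evident from 9 measured markers, whose mean log2 signal was 12.25 to 12.34 over the control arrays and 12.20 to 12.27 over the Cre-ERT2 arrays. Among these markers 0 were called. Cd22 (-0.37; limma adjusted p 0.0920) and Rag1 (-0.31; 0.138) were lower in Cre-ERT2 arrays without overlap, and Ebf1 (0.07; 0.531) was higher without overlap. Of 15 measured mast cell markers, 14 had a higher mean in Cre-ERT2 cells and 3 (Mcpt2, Tpsab1 and Tpsb2) were called higher; the mean of the list was 7.12 to 7.55 in control and 7.72 to 8.72 in Cre-ERT2 arrays, and of the fits that left out 1 array, Tpsb2 was called in 6, Tpsab1 in 3 (not without control 2, control 3 or Cre-ERT2 3) and Mcpt2 in 2 (without Cre-ERT2 1 or Cre-ERT2 2). The deposited log2 values do not go below 2.47, so a low marker signal alone does not tell whether the gene was expressed. The part of mast cell RNA in the differences below was not tested. The 10 myeloid markers had list means of 7.06 to 7.15 and 7.10 to 7.25, and 0 were called. Their log2 differences were positive for 6 and negative for 4, with a median of 0.02, and Mpo was the lowest (-0.18). Lyz2 (1.07; limma adjusted p 0.0651) and Itgam (0.21; 0.150) did not overlap between the groups and were higher in Cre-ERT2 arrays. In bulk RNA, fewer cells of a type and less RNA per cell cannot be told apart.

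The histone genes differed little between the groups. None of the 35 was called higher in Cre-ERT2 cells and 1, the H3 gene H3c15, was called lower, against 0.797% of all genes called higher and 1.12% called lower. The median log2 difference of the 35 genes was -0.01, with 15 positive and 20 negative, beside a median of -0.03 over all genes, of which 7357 were positive and 12581 negative. Repeated quantile normalization turned the split of the histone genes to 21 positive and 14 negative, with a median of 0.02. Without control 1 the median was 0.01 over the histone genes and -0.0065 over all genes. The median over all genes lay between -0.05 and -0.03 without any other single array. At an unadjusted limma p under 0.05 there were 2 histone genes, H3c15 and the linker histone gene H1f2, beside 3605 of all genes. For the other 33 genes the log2 difference lay between -0.12 and 0.11, and their 95% intervals lay within -0.29 and 0.26. The standard error of a histone gene's difference was 0.06 at the median and 0.10 at the most.

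Arrays of the groups did not overlap for 2 genes that were higher (H1f6 and H2bc1) and 5 that were lower (H3c15, H1f2, H1f5, H2bc8 and H3f3a), while 6.59% of all genes were higher and 18.2% lower without overlap. The plot of all 35 differences shows the genes by class with their intervals.

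**Figure D1:**
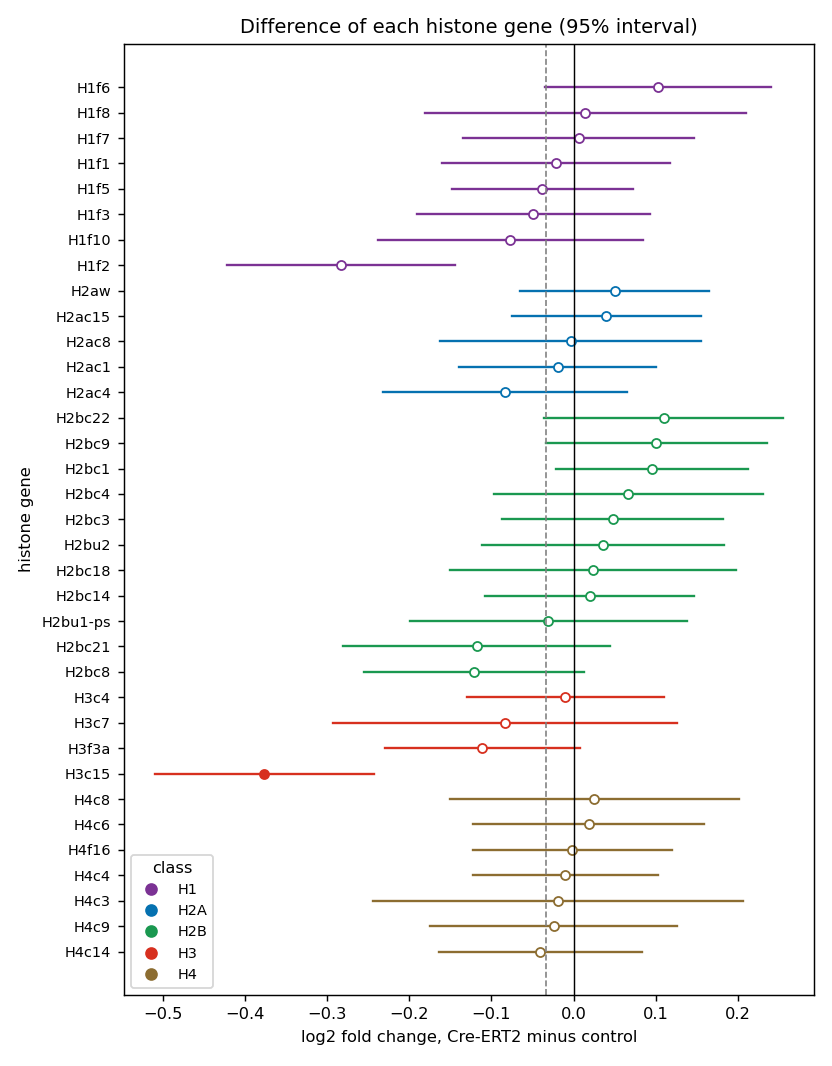
Log2 difference (Cre-ERT2 minus control) of the 35 histone genes with a single-gene probe, by class, with 95% intervals from limma (3 arrays per group); a filled point marks an adjusted p under 0.05 and the dashed line the median of all 19938 genes, -0.03. H3c15 at -0.38 is the only filled point, H1f2 lies at -0.28, and the other 33 genes lie between -0.12 and 0.11.

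H3 genes encode the core histone whose tail carries much of the regulatory lysine methylation. The called gene, H3c15 (Hist2h3c2, probe 10500327), is a replication-dependent gene of the Hist2 cluster. Its log2 signal was 10.56, 10.43 and 10.52 in control arrays 1, 2 and 3, and 10.14, 10.08 and 10.17 in the Cre-ERT2 arrays. Every Cre-ERT2 array lay below every control array, with 0.26 between the groups at their nearest. The mean fell from 10.50 ± 0.07 to 10.13 ± 0.05 (SD, n = 3 each), a log2 difference of -0.38 (95% interval -0.51 to -0.24; limma adjusted p 0.0239), which is 77.0% of the control signal. The exact two-sided permutation test gave p = 0.1, the smallest that 3 against 3 arrays allow.

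The call for H3c15 was lost in the limma fit when any of 5 arrays was left out (control 2 or 3, or any Cre-ERT2 array; adjusted p 0.0534 to 0.114) and kept without control 1 (0.0471), while the log2 difference stayed between -0.42 and -0.35. It was also lost when every probe was tested (limma adjusted p 0.101). The same gene is named by 10 probes that list 12 H3 genes each, and their log2 differences lay between -0.03 and 0.004, none of them called. The probe of H3c15 is annotated through a single complementary DNA record.

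H3c4, a replication-dependent H3 gene of the Hist1 cluster, read 10.07, 10.04 and 10.03 in control and 10.07, 10.05 and 9.98 in Cre-ERT2 arrays, a log2 difference of -0.01 with a 95% interval of -0.13 to 0.11. These arrays overlapped throughout. H3c7 was dim, at 6.12, 6.12 and 5.97 in control and 6.17, 5.98 and 5.81 in Cre-ERT2 arrays (-0.08), and also overlapped. H3f3a, which encodes the replacement variant H3.3, read 7.04, 6.99 and 6.96 on its single-gene probe in control and 6.86, 6.87 and 6.92 in Cre-ERT2 arrays. Its groups did not overlap, but the log2 difference of -0.11 had an interval of -0.23 to 0.01 and did not pass (limma adjusted p 0.311). The 4 probes that name H3f3a with Gm12657 were far brighter, with control means of 12.84 to 13.04. Which part of the H3f3a message the dim single-gene probe reads was not tested. All 4 H3 genes had a negative difference, with a median of -0.10; after quantile normalization 3 did.

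**Figure D2:**
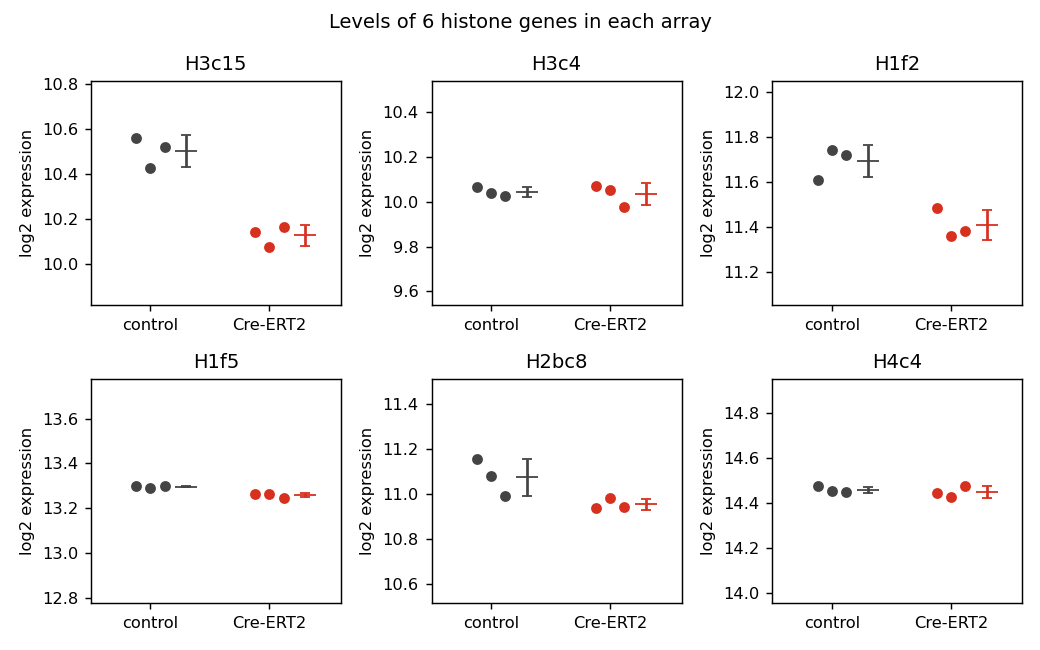
Log2 signal of 6 histone genes on each array, with control and Cre-ERT2 arrays side by side (points are arrays, the bar the mean and SD of 3 arrays) and a vertical range of 1 log2 unit in each panel. The groups are apart for H3c15 (10.43 to 10.56 against 10.08 to 10.17) and H1f2 (11.61 to 11.74 against 11.36 to 11.48), nearly touch for H2bc8 and H1f5, and overlap for H3c4 and H4c4.

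The promoters are shown for the H3 gene that was called and an H3 gene that was not, for the linker pair described next, and for the H4 and H2B genes that are the brightest of their class, to show which of the elements known from histone promoters each one holds or lacks. Each is the stretch of 150 bases just before the RefSeq start (GRCm38.p6), written 5′ to 3′ on the gene's strand. Capitals mark CCAAT, the TATA box letters TATAAA, the octamer ATTTGCAT, the H4 element GGTCCG and the H1 element AAACACA, searched on both strands; a match on the other strand appears as its reverse complement.
H3c15, chr3:96239128-96239277 (- strand): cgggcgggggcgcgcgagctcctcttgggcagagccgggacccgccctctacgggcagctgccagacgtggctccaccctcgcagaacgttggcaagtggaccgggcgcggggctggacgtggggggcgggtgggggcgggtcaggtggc
H3c4, chr13:23575613-23575762 (+ strand): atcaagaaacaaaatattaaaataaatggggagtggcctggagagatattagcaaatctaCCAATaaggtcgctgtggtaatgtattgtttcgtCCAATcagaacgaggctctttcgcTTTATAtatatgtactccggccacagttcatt
H1f2, chr13:23738657-23738806 (+ strand): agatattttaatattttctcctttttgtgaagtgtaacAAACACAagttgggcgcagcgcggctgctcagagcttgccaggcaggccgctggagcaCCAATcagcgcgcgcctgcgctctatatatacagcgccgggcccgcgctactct
H1f5, chr13:21780626-21780775 (- strand): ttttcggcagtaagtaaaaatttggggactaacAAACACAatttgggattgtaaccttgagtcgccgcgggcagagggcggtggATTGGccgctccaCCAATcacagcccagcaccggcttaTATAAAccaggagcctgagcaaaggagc
H4c4, chr13:23581418-23581567 (+ strand): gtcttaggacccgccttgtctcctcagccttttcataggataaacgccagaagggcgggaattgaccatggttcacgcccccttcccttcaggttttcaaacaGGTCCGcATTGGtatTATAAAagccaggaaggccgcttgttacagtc
H2bc14, chr13:21721894-21722043 (+ strand): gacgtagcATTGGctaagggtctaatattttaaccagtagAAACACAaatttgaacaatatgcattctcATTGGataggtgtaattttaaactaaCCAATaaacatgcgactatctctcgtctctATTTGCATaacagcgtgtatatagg
H3c15 holds none of these letters in this stretch, while H3c4 holds CCAAT matches and a TATAAA match on the other strand. The H1 pair shares AAACACA followed by CCAAT, the H4 gene shows GGTCCG just before a reverse CCAAT and TATAAA, and the H2B gene shows the octamer.

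Over windows of 300 bases (250 before to 50 after the start), 30 of the 35 genes were matched in the RefSeq promoter table, and 32851 windows of all genes served as the background. CCAAT was present in 24 of 30 histone windows (80.0%) and in 37.4% of all windows, but in only 2 of 6 H4 windows (33.3%), and TATAAA in 16 of 30 (53.3%) and 13.6%. The octamer, the element bound by OCT1, was found in 4 of 5 H2A and 5 of 8 H2B windows and in 0 of the 17 H1, H3 and H4 windows, beside 1.74% of all. GGTCCG was found in 6 of 6 H4 windows, in 1 H1 window (H1f10) and 1 H2B window (H2bc9), and in 8.25% of all. AAACACA was found in 4 of 8 H1, 2 of 5 H2A, 2 of 8 H2B, 1 of 3 H3 and 0 of 6 H4 windows, and in 7.18% of all. The E2F letters TTTGGCGC and TTTCGCGC were found in 0 and 1 of the 30, beside 0.514% and 0.323%. H3c15 had a single match in its window, a CCAAT that begins at base 15 after the start. Its window was 72.7% G and C, near those of H3f3a (74.0%) and the replacement linker gene H1f10 (77.7%), while the other 27 windows lay between 33.3% and 55.7% and the median of all windows was 52.7%. These matches describe letters, not bound sites.

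Linker histones compact the nucleosome fibre. The 4 replication-dependent H1 genes measured here all had negative differences, from -0.28 to -0.02, and none was called; H1f1 turned positive after quantile normalization (0.01) and H1f3 with array weights (0.01). H1f2 (Hist1h1c, probe 10404059), which encodes an H1 subtype common in somatic cells, read 11.61, 11.74 and 11.72 in control and 11.48, 11.36 and 11.38 in Cre-ERT2 arrays. All Cre-ERT2 arrays lay below all control arrays, by 0.13 at the nearest. The log2 difference of -0.28 (95% interval -0.42 to -0.14; 82.2% of the control signal) missed the threshold (limma adjusted p 0.0569). The exact two-sided permutation p was 0.1. H1f2 passed in 5 of 15 alternative fits, and its adjusted p from limma ranged from 0.00681 to 0.225 over them.

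H1f5 (Hist1h1b), also replication-dependent, read 13.30, 13.29 and 13.30 in control and 13.27, 13.26 and 13.25 in Cre-ERT2 arrays. Its groups did not overlap because the spread within each was small, but the log2 difference was -0.04. H1f1 (Hist1h1a) read 13.12, 13.27 and 13.15 against 13.10, 13.20 and 13.18 (-0.02), and H1f3 (Hist1h1d) read 8.52, 8.35 and 8.44 against 8.32, 8.44 and 8.40 (-0.05). Both overlapped between the groups.

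H1f10, a replacement linker histone, overlapped between groups at a log2 difference of -0.08 (95% interval -0.24 to 0.08). The germ cell linker genes, which act in sperm (H1f6 and H1f7) or oocytes (H1f8), had mean log2 signals of 6.88 to 8.05. H1f6 read 7.04, 7.10 and 7.07 in control and 7.12, 7.28 and 7.13 in Cre-ERT2 arrays, without overlap, at a log2 difference of 0.10 that was not called (limma adjusted p 0.425). H1f7 and H1f8 overlapped, with differences of 0.01 each.

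H2A and H2B pair as dimers in the octamer, and many of their genes sit head to head in the clusters. Of the 5 H2A genes, 2 had positive and 3 negative differences (3 and 2 after quantile normalization), with a median of -0.003 and none called. H2ac15, the brightest of them, read 14.01, 14.01 and 14.02 in control and 14.07, 14.01 and 14.08 in Cre-ERT2 arrays. H2aw, a Hist3 gene, read 13.63, 13.59 and 13.58 against 13.62, 13.67 and 13.66. Both pairs of groups overlapped, and the differences were 0.04 and 0.05. The lowest difference was that of H2ac4, -0.08, with an interval of -0.23 to 0.06.

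Among the 11 H2B genes, 8 had positive and 3 negative differences, with a median of 0.04 and none called. H2bc22 (Hist1h2bp) had the highest difference of all 35 genes. It read 8.27, 8.11 and 8.09 in control and 8.29, 8.22 and 8.30 in Cre-ERT2 arrays, a log2 difference of 0.11 (95% interval -0.04 to 0.26), with control 1 among the Cre-ERT2 values. H2bc9 read 12.63, 12.60 and 12.48 against 12.70, 12.62 and 12.68 (0.10), again with control 1 inside the Cre-ERT2 range. H2bc1, an H2B gene of germ cells, read 10.36, 10.42 and 10.35 against 10.50, 10.45 and 10.46 (0.10), without overlap and not called (limma adjusted p 0.380). This gene is also named by 4 shared H2B probes. Whether its own probe and the other single-gene probes read only the gene they name was not tested. H2bc14, the brightest single-gene H2B probe, read 13.55, 13.48 and 13.41 against 13.52, 13.48 and 13.50, and H2bc3 read 12.97, 12.94 and 12.82 against 12.94, 12.93 and 12.99; both overlapped.

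On the negative side, H2bc8 (Hist1h2bg) read 11.16, 11.08 and 10.99 in control and 10.94, 10.98 and 10.94 in Cre-ERT2 arrays. The groups were apart by only 0.0089, and the log2 difference of -0.12 (95% interval -0.26 to 0.01) did not pass (limma adjusted p 0.324). H2bc21, whose message can be polyadenylated, read 7.51, 7.33 and 7.35 against 7.18, 7.35 and 7.31 (-0.12), with overlap. H2bc4 (0.07), H2bu2 (0.04), H2bc18 (0.02) and the transcribed pseudogene H2bu1-ps (-0.03) overlapped too.

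H4 is the least variable of the core histones, and most of its genes encode the same protein. Of the 7 H4 genes 2 had positive and 5 negative differences, all between -0.04 and 0.03, and none was called; after quantile normalization 5 were positive. H4c4, the brightest histone probe that names 1 gene, read 14.47, 14.45 and 14.45 in control and 14.45, 14.43 and 14.48 in Cre-ERT2 arrays. The highest signal on any array lay between 14.65 and 14.81, so this probe was near the top of the scale. H4c14, of the Hist2 cluster like H3c15, read 13.80, 13.72 and 13.68 against 13.66, 13.70 and 13.72 (-0.04), with overlap. H4c3 had the widest error of the 35 genes: 12.03, 12.06 and 11.85 in control against 11.74, 12.06 and 12.08, with Cre-ERT2 1 alone low, a difference of -0.02 and an interval of -0.24 to 0.21.

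By location, the 23 genes of the Hist1 cluster had a median log2 difference of -0.01 with 10 positive and 13 negative. The 4 genes of the Hist2 cluster had differences of -0.38 (H3c15), -0.12 (H2bc21), -0.04 (H4c14) and 0.02 (H2bc18), and the last 3 overlapped between the groups. By signal, the 20 genes at a mean log2 signal of 10 or above had a median of -0.01 and the 15 below it a median of -0.003.

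Of the 33 probes that name several genes, 26 name more than 1 histone gene, whose transcripts they cannot tell apart, and 7 name 1 histone gene with another gene. They were tested in a fit over all 35556 probes, in which 0.0366% were called higher and 0.0225% lower. None of the 33 was called, and 0 had an unadjusted limma p under 0.05. Their log2 differences lay between -0.06 and 0.08, 17 positive and 16 negative, with 95% intervals within -0.17 and 0.19. The groups did not overlap for 1 that was higher and 6 that were lower, beside 7.65% and 15.0% of all probes. Of these probes, 2 pairs held identical values on every array, so the probes of a class are not independent.

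The 7 shared H2B probes, which list 14 or 15 genes each, all had positive differences, from 0.05 to 0.08, and all 7 were also positive after centring and after quantile normalization. The one with the lowest p, probe 10403948, read 13.98, 13.95 and 13.92 in control and 14.05, 14.00 and 14.04 in Cre-ERT2 arrays, without overlap, at 0.08 (limma adjusted p 0.496 over all probes). The shared H2A probes, whose lists also hold the H3 gene H3c4, differed by 0.02 and 0.03, and the probe that names H2aw with Trim17, which is no histone gene, by 0.06.

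The 10 H3 probes lay between -0.03 and 0.004. The brightest, probe 10404065, read 14.56, 14.54 and 14.54 in control and 14.54, 14.53 and 14.54 in Cre-ERT2 arrays, close to the top of the scale. The 5 probes that list 11 H4 genes each had differences of 0.01 to 0.03, all positive, of which 4 were positive after centring and 4 after quantile normalization, and the probe shared by H4c11 and H4c17 differed by 0.02. The 4 probes that name H3f3a with Gm12657 differed by -0.06 to -0.04, and the 2 that name H3f3b, the other H3.3 gene, with Gm6485 by -0.05 and -0.03. The probe shared by H2bc6 and the linker gene H1f4 differed by -0.04.

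**Figure D3:**
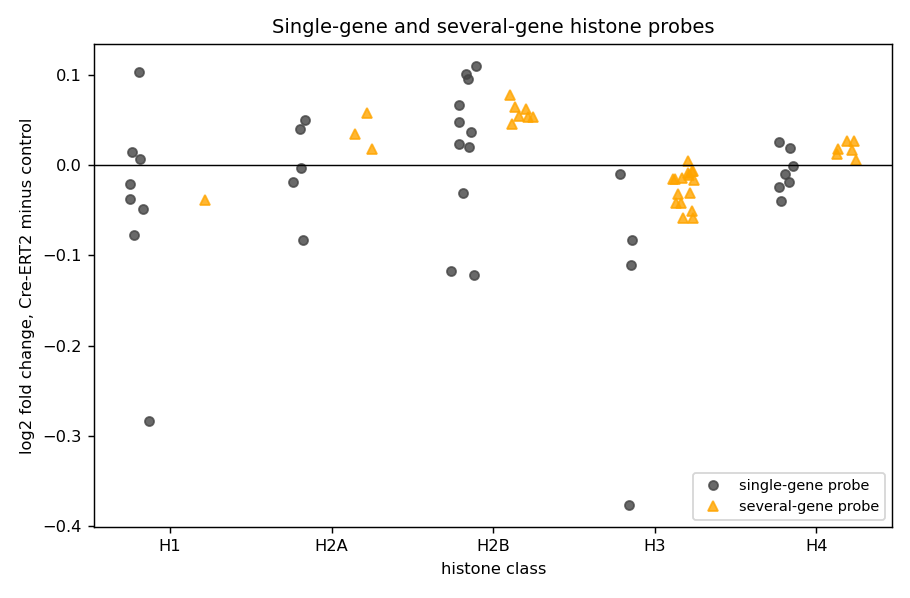
Log2 difference (Cre-ERT2 minus control) of histone probes by class, single-gene probes (35) beside several-gene probes (33); points are probes, spread sideways only to separate them. Single-gene probes run from -0.38 to 0.11, while several-gene probes run from -0.06 to 0.08, with all 7 probes shared by H2B genes alone above 0. The probe shared by H2bc6 and H1f4 (-0.04) is drawn under H1. The shared H2A probes whose lists also hold H3c4 are drawn under H2A.

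Differences between arrays of a group were as large as most differences between the groups. Control 1 was the highest of the controls for 26 of the 35 histone genes, as it was for 66.6% of all genes. The median deviation of the histone genes from their means over all 6 arrays was 0.06 on control 1, -0.001 on control 2 and -0.05 on control 3. It was between -0.01 and 0.01 on the Cre-ERT2 arrays. Without control 1, 20 histone genes had a positive difference and 15 a negative one, and without control 3, 9 and 26 did. In the fit with array weights, where control 1 had the lowest weight (0.322), 21 were positive. Among the 25 histone genes chosen for naming, 9 changed sign under at least 1 alternative fit, and 16, among them H2bc1, H2bc9, H3f3a and H2bc8, kept their sign in each.

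Genes that act on histones or alongside histone synthesis were described from lists. For histone messages these are the stem-loop binding protein, the U7 processing factors and the transcription factor NPAT. Of 21 measured, 3 had positive and 18 negative differences, with a median of -0.12 and 0 called (limma; beside -0.03 over all genes). Slbp, which binds the stem-loop, read 11.64, 11.70 and 11.68 in control and 11.53, 11.61 and 11.60 in Cre-ERT2 arrays, without overlap, at -0.10 (limma adjusted p 0.395). Npat, the activator of the histone clusters, overlapped at -0.03. The lowest p-values were those of Cpsf3, the endonuclease that cleaves the message (-0.23), Casp8ap2, known as FLASH in the same cleavage step (-0.18), Tut7, a uridyltransferase (0.15), and Cstf2, a cleavage stimulation subunit (-0.16), with limma adjusted p of 0.0931 for Cpsf3, 0.117 for Casp8ap2 and 0.140 for Tut7.

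Histone chaperones carry newly made histones to DNA. Of 25 measured, 6 were positive and 19 negative, with a median of -0.10, 0 called higher and 2 called lower, beside 0.797% and 1.12% of all genes. Nasp, which holds the H3-H4 reserve, read 10.70, 10.78 and 10.78 in control and 10.41, 10.43 and 10.35 in Cre-ERT2 arrays, a log2 difference of -0.35 (limma adjusted p 0.0227). Hat1, the acetyltransferase of new H4, read 12.46, 12.34 and 12.50 against 12.04, 12.15 and 12.07, also -0.35 (limma adjusted p 0.0369). Neither overlapped between the groups. Nasp stayed called without control 1 or without Cre-ERT2 2 and lost its call without each of the other 4 arrays, and Hat1 lost its call without any 1 of the 6 (limma adjusted p up to 0.143 and 0.174). Asf1a, an H3-H4 chaperone (-0.26), and Rbbp7, a histone-binding subunit of several complexes (-0.20), did not pass. Chaf1a, the large subunit of the CAF-1 assembly factor, overlapped at 0.003.

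Histone variants named outside the rule numbered 10 measured, 3 positive and 7 negative, with a median of -0.07 and 0 called. Cenpa, the H3 variant of centromeres, read 12.30, 12.20 and 12.23 in control and 11.93, 12.07 and 11.92 in Cre-ERT2 arrays, without overlap, at -0.27 (limma adjusted p 0.0623). H2ax, the variant phosphorylated at DNA breaks, differed by -0.20 (limma adjusted p 0.232), and Macroh2a2 by 0.28 (0.164). H2az2, an H2A.Z gene, differed by -0.12.

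The 41 measured DNA replication genes had 3 positive and 38 negative differences, a median of -0.15 and 2 called lower, beside 1.12% of all genes: Rrm2, the small subunit of ribonucleotide reductase (-0.30; limma adjusted p 0.0381), and Rfc3, a clamp loader subunit (-0.31; 0.0484). Gins1 (-0.39; limma adjusted p 0.0512) and Gins4 (-0.26; 0.0569), of the replicative helicase, did not pass. Both were called lower after centring and after quantile normalization. The 19 measured G2/M genes had 1 positive and 18 negative differences, a median of -0.15 and 1 called lower, beside the same 1.12%, the kinetochore gene Nuf2 (-0.31; limma adjusted p 0.0472). Left out singly, every array ended the call of Rrm2, and every array but Cre-ERT2 2 those of Rfc3 and Nuf2. With the arrays centred on their medians, 10 replication genes, 4 G2/M genes and 5 chaperone genes were called lower, beside 692 of all 19938 genes. After quantile normalization 5, 1 and 2 were called lower, beside 334 of all genes. In both cases most members of each list stayed negative. Centring also brought Cpsf3 (-0.24) and Cenpa (-0.28) past the threshold, and Ubn2, a subunit of the HIRA chaperone complex, was called higher after centring (0.22) and after quantile normalization (0.26). The histone genes, 15 positive and 20 negative around -0.01, are plotted beside these lists.

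**Figure D4:**
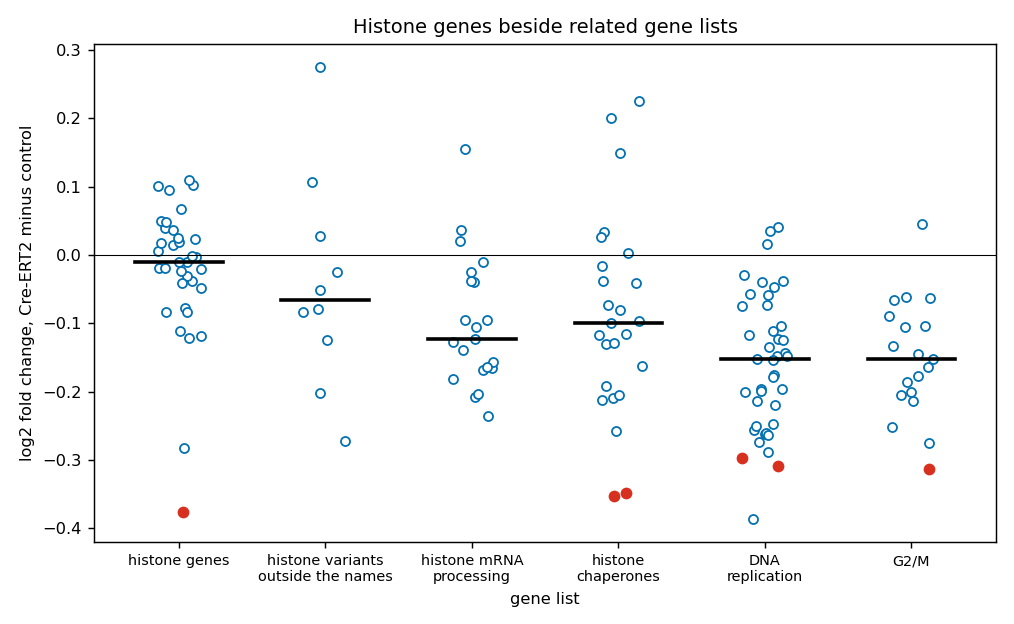
Log2 difference (Cre-ERT2 minus control) of the 35 histone genes beside 5 lists of genes that act on histones or in the cell cycle; points are genes, red marks a limma adjusted p under 0.05 and the black line the median of each list. The median is -0.01 for the histone genes, -0.12 for histone message processing, -0.10 for chaperones, -0.07 for other variants and -0.15 for both DNA replication and G2/M genes.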

How the data were processed

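The authors deposited log2 expression values (2.47 to 14.81) for 35556 probes on 6 arrays; per the submitters' processing notes, the tools were RMA and Partek 6.5. Not given in the sources used here were background correction, filters on probes and the priming of the labelling, which bears on messages without a poly(A) tail. Depth does not apply: the number of arrays limits the precision.

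Values were used as deposited. The annotation named 1 gene for 21789 probes, several for 1621 and none for 12146; 999 genes with several probes were represented by the brightest. The difference between groups was fitted in limma 3.58.1 (R 4.3.3; lmFit, eBayes), and p-values were adjusted by Benjamini-Hochberg over 19938 genes (over 35556 probes for shared probes) and a threshold of 0.05.

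The members and lists were chosen with earlier results of these data known. Named genes are called members, the 8 highest and 8 lowest differences, and all linker and H1f to H3f genes. The 2 brightest of each core class and up to 4 genes per list by p were also named. Others (Slbp, Npat, Chaf1a, Ubn2, Cd22, Rag1, Ebf1, Lyz2 and Itgam, and several overlapping members) were named after their values were seen. Mast, myeloid, T cell and erythroid markers were checked; 4 T cell and 2 erythroid markers were measured, with 0 called. The probes of H3c15 and H1f2 are annotated through complementary DNA records, with no RefSeq transcript. On data simulated for this comparison (20 simulations of 19938 genes), 17.6% of genes changed by 0.25 on the log2 scale, 76.3% by 0.5, 96.8% by 1 and 99.6% by 1.5 were recovered, and 4.13% of calls were false. Only a small set of genes was changed in each simulation and genes varied independently, so recovery in the real comparison may differ. The alternatives changed the filter on dim genes, the probes, the scaling, the variance model, the array weights, the replicate block, the threshold and the arrays kept.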

Additional observations from a re-analysis of the deposited data

How the results depend on the processing

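The count of histone genes called higher stayed at 0 and the median log2 difference stayed between -0.04 and 0.03 under every alternative run, and the shared probes stayed at 0 calls when only named probes were tested and when single arrays were left out. The count called lower, 1 as reported, became 2 (H3c15 and H1f2) with dim genes left out or median-centred arrays. It was also 2 with a trend of variance with intensity, array weights or a threshold of 0.10. Over all genes, lower calls rose from 223 of 19938 to 791 of 11963 with dim genes left out. They rose to 692 with centring, 821 with the trend and 1082 with array weights. The count of histone genes called lower was 0 when every probe was tested, where 8 of 35556 probes were called lower. It was also 0 with members found by the annotation symbol alone, an alternative chosen after seeing the data. There the 0 was fixed beforehand, because H3c15 matched only by its older symbol. The count called lower ranged from 0 to 1 when single arrays were left out, beside 18 to 111 of all genes. Without both arrays numbered 1, also chosen after seeing the data, H1f2 was called (limma adjusted p 0.0493) and H3c15 was not (0.0762). Replicate numbers were not treated as pairing, because the labels do not state that they pair the arrays. Deviations of same-numbered arrays from their group means correlated at 0.27, 0.34 and 0.03. Whether same-numbered arrays belong together was not tested. With the replicate block 1 histone gene was called lower, H3c15 (limma adjusted p 0.0140), and 296 and 285 of all genes were called higher and lower. Of 395 alternative values for 25 named histone genes, 7 for H3c15 lost the call and 6 for H1f2 gained it. The sign changed in 22, for 9 genes that were never called (H1f1, H1f3, H1f7, H1f8, H2bc14, H3c4, H3c7, H4c4 and H4c14), and in 3 of the 22 the value moved by at least the SD between arrays of a group. The causes were not tested. With 3 arrays per group, differences near 0.25 on the log2 scale were rarely recovered in simulation, and several histone probes lay near the top of the scale.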
